A study of Mus musculus with 6 samples.

Results

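The 6 genes Mcm2, Mcm3, Mcm4, Mcm5, Mcm6 and Mcm7 encode the subunits of the replicative DNA helicase, and they were followed here among 21883 protein-coding genes in lists of open chromatin from mouse urothelium, the epithelium that lines the bladder. The genes were taken by name, with no threshold on a measured value. Every listed interval of open chromatin that overlapped the mm10 span of a gene, widened by 10 kb on each side, was assigned to that gene. In the whole lists this gave 22, 22 and 23 intervals in the 3 Stag2-WT libraries and 39, 20 and 19 in the 3 Stag2-KO libraries, of 149153 to 260462 intervals per library.

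The assay was ATAC-seq, in which the Tn5 transposase cuts and tags accessible DNA, so that reads pile up where chromatin is open. All 6 libraries came from mice given tamoxifen (TMX) in the diet and were collected 1 week after induction; viable GFP-positive urothelial cells were isolated by flow sorting, with 50000 cells per condition, and all belong to batch 1. The groups were Stag2-WT (replicates 1, 2 and 3) and Stag2-KO (replicates 1, 2 and 3), Stag2 being the gene of a cohesin subunit, cohesin the complex that pairs sister chromatids and shapes chromatin loops. The study's title links STAG2 to DREAM, a repressor complex of cell-cycle genes. Neither the labels nor the lists give the Cre driver, the source of the GFP, the age of the mice or the number of animals behind a library. The libraries are called biological replicates, and with no animal numbers the p-values speak only of the spread among these 6. An open interval lay at the Stag2 start in all 6 libraries, at ranks of 28720 to 34076 in WT and 16287 to 26329 in KO. Every KO rank was better than every WT rank, as at 16.5% of all gene starts tested. The labels do not say which part of Stag2 is deleted, so this interval is no check of the genotype.

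The MCM proteins form a ring that encircles DNA. In G1 phase the origin recognition complex, CDC6 and CDT1 load the ring onto replication origins, a step called licensing, and in S phase CDC45 and GINS join the ring to make the active helicase. Transcription of the Mcm genes is driven by E2F factors in proliferating cells and is held down in quiescent cells by DREAM, which reaches DNA through E2F sites and through CHR elements. The urothelium is a slowly renewing tissue in which most cells are quiescent.

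Promoter sequences, from 250 bases before to 50 bases after a start, were taken from RefSeq (GRCm38.p6, the assembly of mm10). Entries were matched for Mcm2, Mcm3, Mcm5, Mcm6 and Mcm7; Mcm4 had none. Both strands were searched for the E2F letters TTTGGCGC, TTTCCCGC, TTTGCCGC and TTTCGCGC, which 2.85% of 21262 protein-coding promoters hold, and for the CHR letters TTTGAA and TTCGAA, which 17.6% hold. The E2F letters were matched in Mcm3, Mcm5, Mcm6 and at the outer of 2 listed Mcm7 starts, but in neither the Mcm2 promoter nor the inner Mcm7 promoter. The sites are shown because the title names DREAM and because they place the summits described further on; each is 30 bases, read in the direction of the gene, with the matched letters in capitals.
Mcm2, CHR letters, chr6:88898833-88898862, minus strand: agggctcagcctTTTGAAagctgtgggcgg
Mcm3, E2F letters, chr1:20820275-20820304, minus strand: aaacttccgtgGCGGGAAAacttgggaagt
Mcm3, E2F letters, chr1:20820263-20820292, minus strand: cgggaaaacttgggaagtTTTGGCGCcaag
Mcm5, overlapping E2F letters on both strands, chr8:75109347-75109376, plus strand: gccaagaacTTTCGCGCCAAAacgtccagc
Mcm6, overlapping E2F letters on both strands, chr1:128359795-128359824, minus strand: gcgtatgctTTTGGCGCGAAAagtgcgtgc
Mcm6, E2F letters, chr1:128359734-128359763, minus strand: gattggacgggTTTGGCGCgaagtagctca
Mcm7, E2F letters beside a CHR match left in lower case, chr5:138172030-138172059, minus strand: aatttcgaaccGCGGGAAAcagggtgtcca
Mcm7, E2F letters, chr5:138171849-138171878, minus strand: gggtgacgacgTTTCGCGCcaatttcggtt

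A letter match is a description of the sequence and not a measured binding site. The 2 Mcm3 stretches overlap each other. CHR letters were matched in the Mcm2 promoter and at the outer Mcm7 start, where TTCGAA, the same on both strands, stands just before the first E2F match shown, and in no other matched promoter. CCAAT, the letters bound by NF-Y, were matched in 38.2% of all promoters, and each of the 5 matched genes held them.

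Sequencing depth is not recorded in the lists, so intervals were compared by their rank within a library. Rank 1 is the interval with the highest fold over background, the value given by the authors' peak caller, and the best 100000 intervals of each library were kept. The number of intervals in the whole lists overlapped between the groups (exact permutation p = 0.7, two-sided). The lists of the best 100000 lay apart in width and in the share at gene starts. Their median width was 389 ± 15.5 bp (SD, n = 3) in WT and 348 ± 7.21 bp in KO, and 12.03% ± 0.085 of WT intervals against 12.61% ± 0.275 of KO intervals lay within 500 bp of a gene start; both gave an exact permutation p of 0.1, two-sided, the smallest that 3 against 3 allows. Counts of called genes depended on single libraries: 12 gene starts were called with all libraries, 924 without KO replicate 3, 352 without WT replicate 2, 5 without WT replicate 1 and 0 without KO replicate 1. Of 20 urothelial marker genes 13 had an interval at the start in all 6 libraries, as had 11612 of all 21883 protein-coding genes. The same held for 1 of 6 fibroblast, 1 of 5 smooth muscle, 0 of 5 endothelial and 2 of 6 immune markers. Among the best 100000 intervals, Trp63 and Gata3 of the urothelial list had none at the start used in any library. Krt5 had one only in KO replicates 1 and 2. The immune markers were Csf1r and Spi1, a myeloid transcription factor gene with ranks of 3421 to 6255 in WT and 5622 to 7885 in KO. Csf1r ranked 24732 to 42304 in WT and 43329 to 56453 in KO, worse in every KO library. The fibroblast marker Col1a1 was also worse in every KO library, at 50226 to 76747 in WT and 85261 or worse in KO. Ranks were worse in this way at 1.5% of gene starts tested. Of the 20 urothelial markers 6 ranked better in every KO library than in any WT library, and 0 ranked worse in this way. The 6 were Upk1b, Upk3a, Krt7, Krt18, Foxa1 and Epcam, and 16.5% of all gene starts tested ranked better in this way. Of the 16 urothelial markers tested, 12 had a better and 4 a worse mean -log2 rank in KO. The median difference was 0.25, against 0.24 over all gene starts tested. Among the best 100000 intervals, Krt18 had one in all 3 KO libraries, at ranks of 64295 to 91170, and in no WT library. The part of these marker differences in the results below was not tested.

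All 6 Mcm genes had an open interval at the start in every library. The start was the 5′ end of the annotated span, with 500 bp on either side; for Mcm4, whose strand the reference tables used here did not give, it was the end of the span with the better mean rank over the 6 libraries. In each library the order of the 6 genes fell into the same 3 tiers. Mcm3, Mcm5 and Mcm6 held the first 3 places in all 6 libraries, Mcm4 was in place 4 in all 6, and Mcm2 and Mcm7 were last in all 6. Within the upper tier the order varied: Mcm3 led in 4 libraries, Mcm5 in KO replicate 1 and Mcm6 in KO replicate 2. Mcm7 was last in 4 libraries, and Mcm2 in WT replicates 1 and 3. Against all 12870 gene starts tested, the mean rank of Mcm3 stood at percentile 99.4, Mcm6 at 95.4, Mcm5 at 93.3, Mcm4 at 64.5, Mcm2 at 18.1 and Mcm7 at 9.59.

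**Figure D1:**
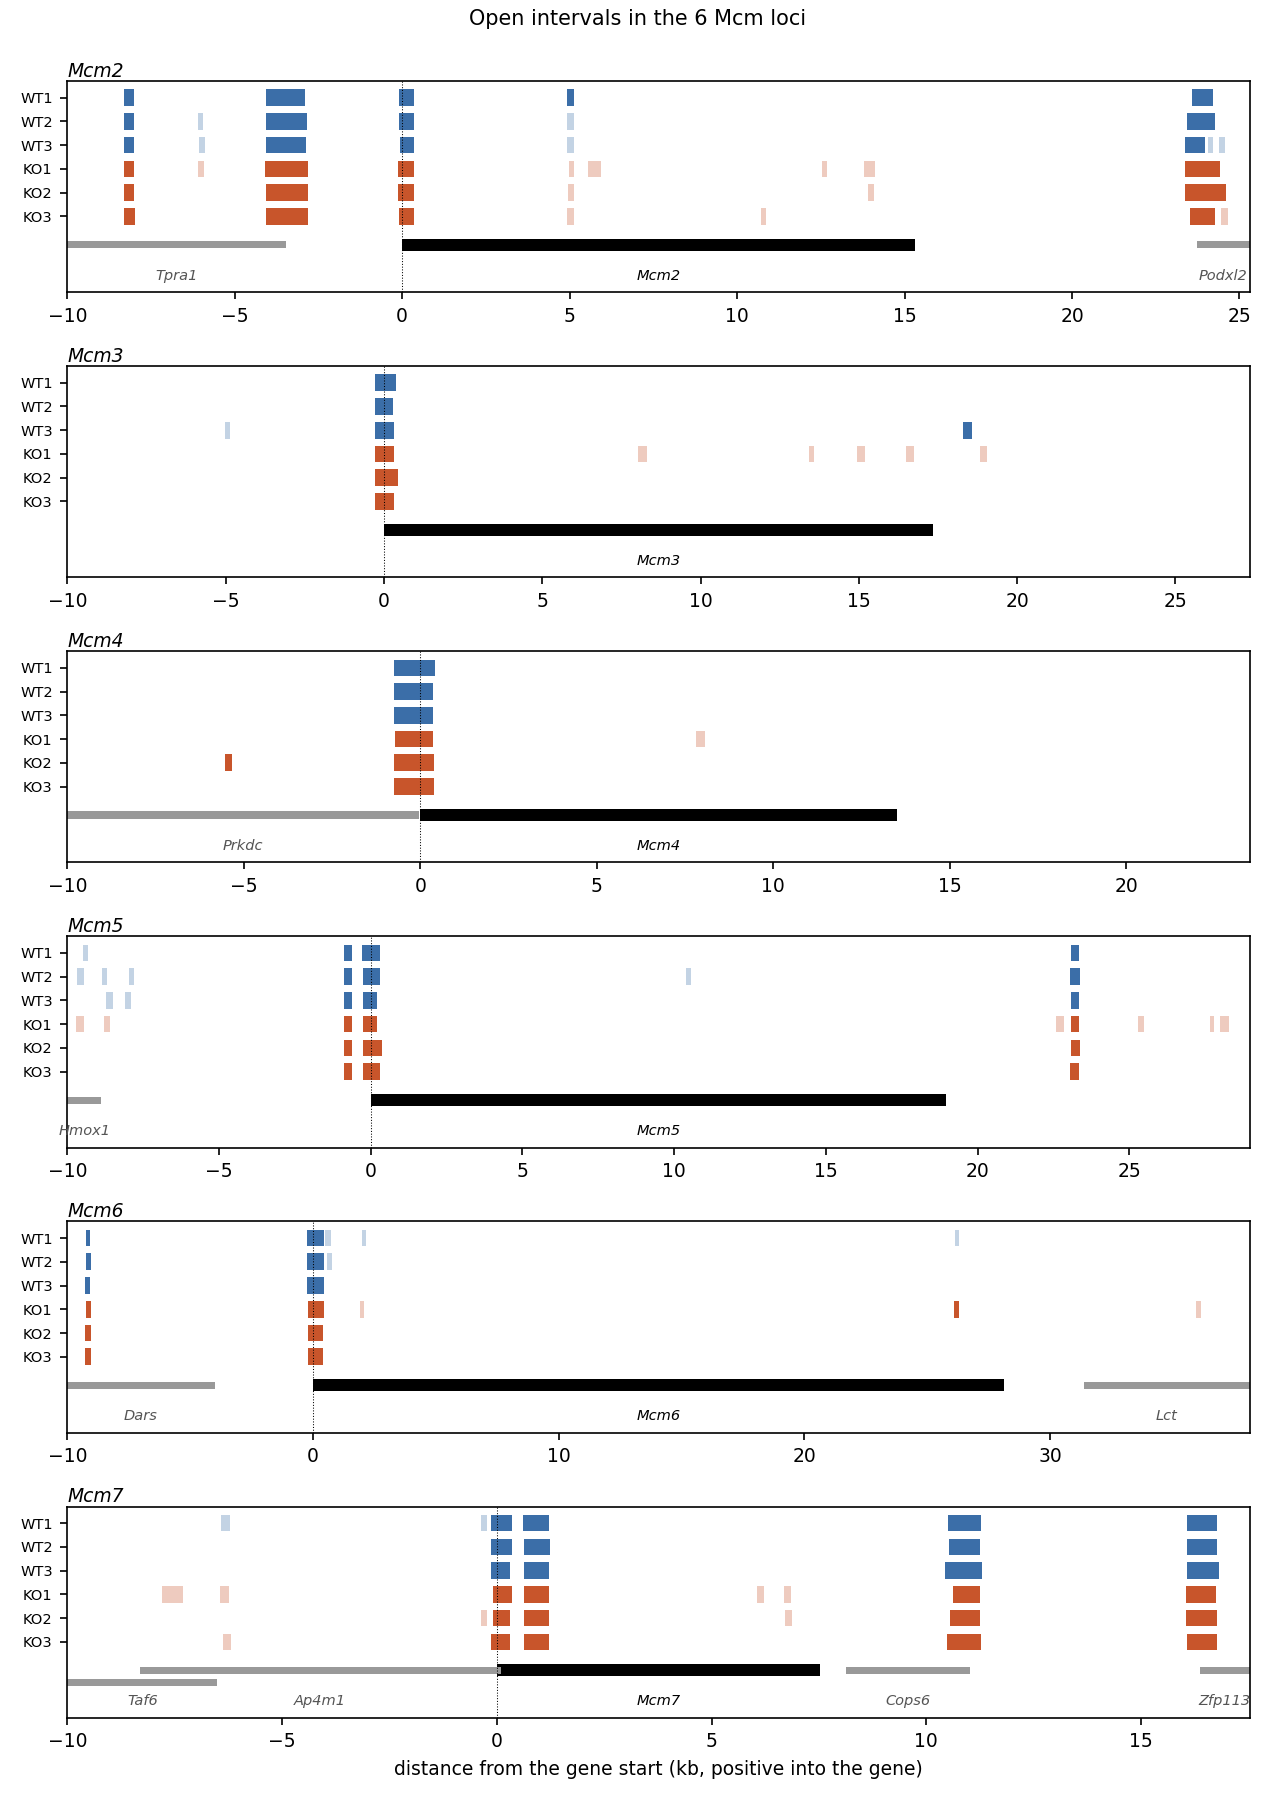
Open intervals in the 6 loci, 1 line per library (WT1 to WT3 blue, KO1 to KO3 orange), plotted by distance from the gene start in kb; solid bars are intervals among the best 100000 of the library, faint bars are weaker ones, black bars are the Mcm gene and grey bars its neighbours. Each locus has 1 start interval in all 6 libraries, and Mcm3 and Mcm4 have no other interval shared by all 6.

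No Mcm gene start changed rank between Stag2-KO and Stag2-WT by limma with Benjamini-Hochberg adjustment, where 0.0932% of the 12870 gene starts tested were called (12 in all, 4 better and 8 worse ranked in KO). At an unadjusted p under 0.05 there was 1 member of 6, Mcm2, with a better rank in KO, as had 11.7% of all gene starts. The difference is given as a log2 rank gain, positive where the rank is better in KO. Over all gene starts tested the median gain was 0.24, with 9207 positive and 3663 negative, and the Mcm genes had 2 positive and 4 negative values with a median of -0.13. Gains below are to be read against the 0.24 shared by gene starts at large.

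**Figure D2:**
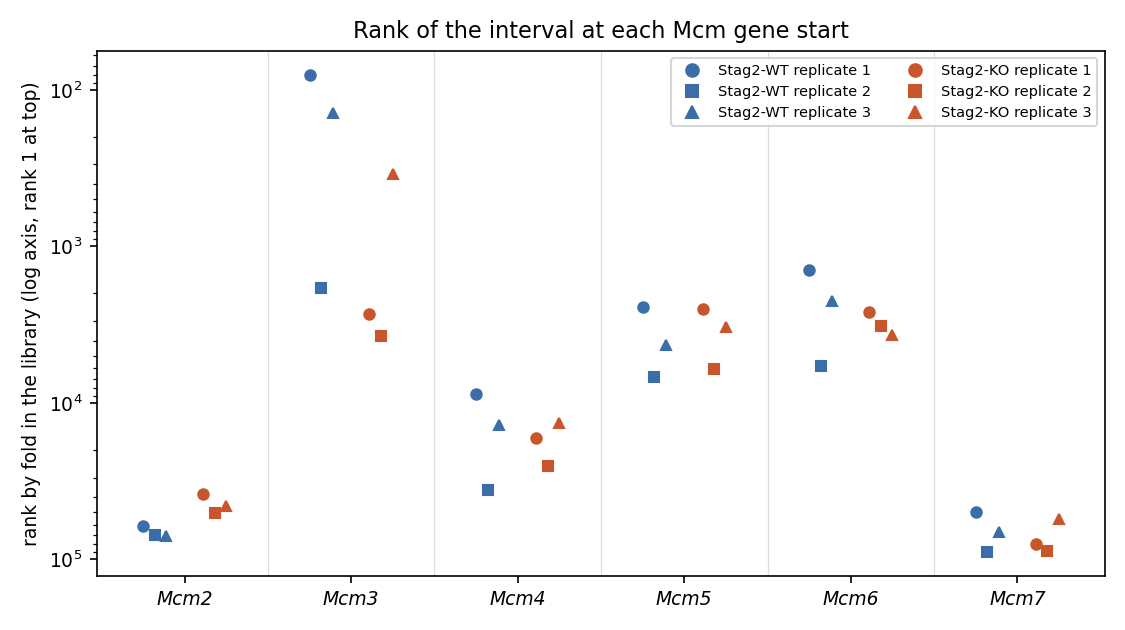
Rank of the interval at each Mcm gene start, on a log axis with better ranks upwards, for the 3 WT and 3 KO libraries; points are libraries. Only the Mcm2 groups do not overlap, with KO ranks of 38226 to 50757 against WT ranks of 61578 to 70597.

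Mcm3, whose protein joins the ring to the loading complex of ORC and CDC6, had the strongest interval of the family. Its gene lies on the minus strand at chr1:20802966-20820312. The start interval ranked 80, 1842 and 141 in WT replicates 1, 2 and 3 and 2723, 3747 and 346 in KO replicates 1, 2 and 3, so that the groups overlapped, while within each pair of same-numbered libraries the KO rank was the worse one. The fold over background was 31.6, 37.5 and 34.7 in WT and 28.9, 34.8 and 32.9 in KO, a difference within 1 SD. WT replicate 2 held the highest fold of the 6 and the worst WT rank. The rank gain was -2.47 ± 1.34 (limma, SE, n = 3 and 3; adjusted p = 0.415). Only 0.148% of gene starts tested had a lower gain, a share taken over starts of every rank. Near the top of a list a narrow range of fold spans a wide log2 range of rank. The part of this in the Mcm3 gain was not tested. The size of the gain rested on single libraries. It was -1.58 without WT replicate 1 and -3.84 without WT replicate 2 (limma adjusted p = 0.0858). The share of intervals at gene starts is higher in each KO library than in any WT library. With this share as a covariate the gain turned to 2.39 ± 2.16 (SE, limma adjusted p = 0.975). The sign was reversed in this 1 alternative and stayed negative in 17. Relative to the library medians the gain was -2.71 (limma adjusted p = 0.644). Ranked by -log10 p it was -2.08 (limma adjusted p = 0.254).

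Mcm5 and Mcm2 encode the neighbours between which the ring opens to let DNA in. Mcm5, on the plus strand at chr8:75109468-75128439, ranked 2458, 6876 and 4280 in WT and 2523, 6041 and 3299 in KO. Its fold was 23.0, 30.5 and 24.6 in WT and 29.3, 31.9 and 25.6 in KO. Both sets of values overlapped, and the gain of 0.17 ± 0.68 (limma, SE, n = 3 and 3; adjusted p = 0.930) turned to -0.07 once each library was centred on its median.

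Mcm2, on the minus strand at chr6:88883474-88898780, was the only member whose ranks separated the groups. The ranks were 61578, 69553 and 70597 in WT and 38226, 50757 and 45682 in KO. All 3 KO libraries ranked it better than any WT library, a pattern found at 16.5% of gene starts tested. Its fold also lay apart, at 6.06, 8.48 and 6.19 in WT (6.91 ± 1.36, SD) against 10.4, 10.9 and 9.05 in KO (10.1 ± 0.952). All 3 KO folds lay above all WT folds at 2.7% of 12922 gene starts with an interval in every library, and fold, unlike rank, is not adjusted for differences between the lists. The -log10 p of the same intervals overlapped, at 111, 347 and 139 in WT and 373, 594 and 234 in KO; ranked by -log10 p within each library, the gain was 0.93 with an adjusted p of 0.254. The gain was 0.59 ± 0.22 (limma, SE, n = 3 and 3; adjusted p = 0.335), and 80.8% of gene starts tested had a lower gain. Relative to the library medians it was 0.35, with an adjusted p of 0.644. Its promoter is the one among the matched entries at gene starts that holds CHR letters and none of the searched E2F letters, in the sequence given above. Over all promoters 17.6% hold the CHR letters and 2.85% the E2F letters. A link between these letters and the ranks was not tested.

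Mcm4, Mcm6 and Mcm7 encode the subunits that together form the catalytic core. Mcm6, on the minus strand at chr1:128331575-128359705, ranked 1416, 5838 and 2250 in WT and 2623, 3240 and 3674 in KO. Its fold was 24.7, 31.6 and 27.0 in WT and 29.1, 35.6 and 25.2 in KO. The groups overlapped in both, with a gain of -0.25 ± 0.74 (limma, SE, n = 3 and 3; adjusted p = 0.906).

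Mcm4, at chr16:15623897-15637400, shares its interval with Prkdc, the gene of the DNA-dependent protein kinase, whose span begins 44 bp away. The signal there cannot be divided between the pair. The ranks were 8758, 35805 and 13859 in WT and 16787, 25384 and 13466 in KO, and the fold ran from 15.8 to 18.4 in WT and from 17.4 to 19.2 in KO. WT replicates 1 and 2 were the extremes of the 6 libraries by rank, with all KO libraries between them. The gain was -0.13 ± 0.49 (limma, SE, n = 3 and 3; adjusted p = 0.924).

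Mcm7, on the minus strand at chr5:138164583-138172111, ranked 49625, 89352 and 67008 in WT and 79472, 88534 and 54789 in KO at the outer end of its span. Its fold was 7.41, 6.24 and 6.55 in WT and 5.14, 5.33 and 7.65 in KO. The groups overlapped, and the gain was -0.13 ± 0.26 (limma, SE, n = 3 and 3; adjusted p = 0.857). The start of Ap4m1, a gene of vesicle sorting that runs the other way from position 138172021, lies in the same interval. A second, stronger interval lay further into the gene at chr5:138170883-138171511, over the inner listed Mcm7 start at 138171266. It ranked 14145, 20339 and 14475 in WT and 8801, 17540 and 12900 in KO, with overlapping groups and a gain of 0.35 ± 0.41 (SE; adjusted p = 0.686 over 100565 regions). That gain was 0.097 without KO replicate 1, 0.19 without WT replicate 2, 0.59 without KO replicate 2 and 0.85 when ranked by -log10 p. The choice of start moved both the tier of Mcm7 and the sign of a difference that passed the test at neither start.

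**Figure D3:**
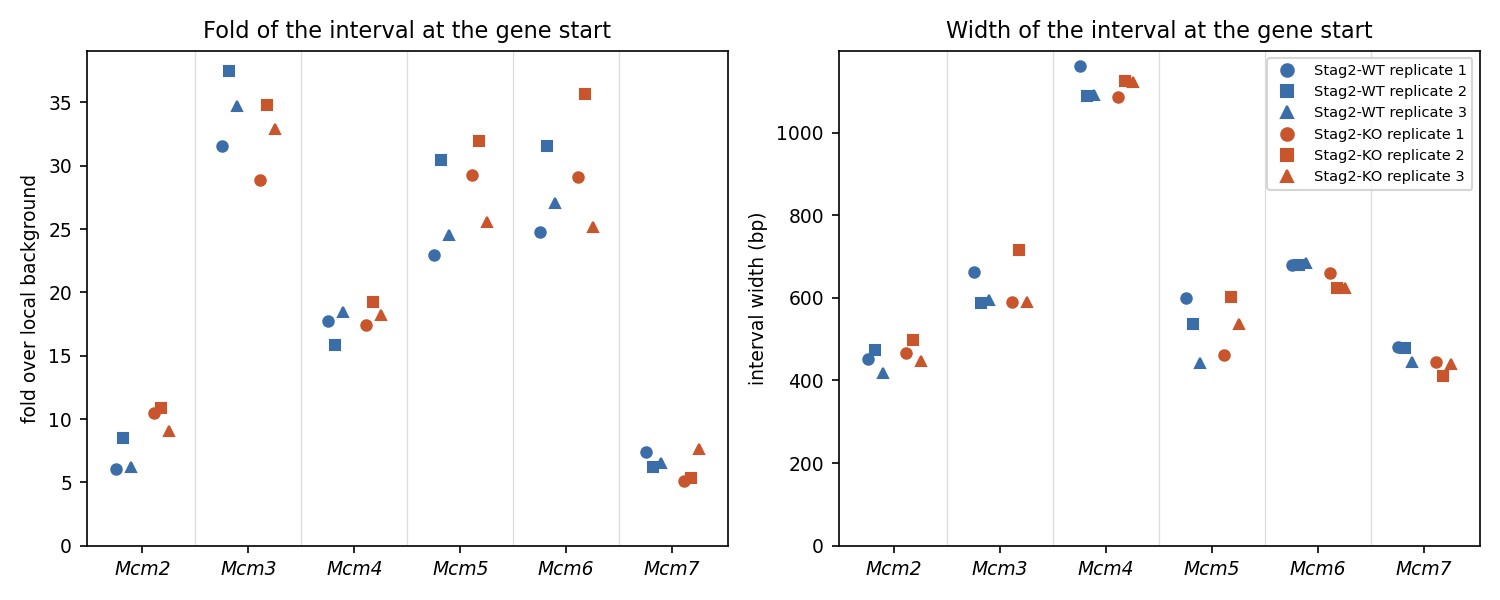
Fold over background (left, authors' peak caller) and interval width in bp (right) at the 6 gene starts; points are libraries, WT and KO. Mcm2 fold values and Mcm6 widths are the sets in which KO and WT do not overlap; KO folds lay all above WT at 2.7% and KO widths all below WT at 21.6% of gene starts.

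The widths of the start intervals gave a different order from the ranks. Mcm4 was the widest in all 6 libraries, at 1161, 1088 and 1091 bp in WT and 1086, 1126 and 1123 bp in KO, in the interval that also covers the near end of the Prkdc span. Mcm3 and Mcm6 shared places 2 and 3, and Mcm2, Mcm5 and Mcm7 were narrower in every library. No member changed width by limma, where 1.23% of 12922 gene starts were called (12 wider and 147 narrower in KO). At an unadjusted p under 0.05 there were 0 of 6, whereas 11.8% of all gene starts were narrower in KO at that level. The median width difference over all gene starts was -0.06 on the log2 scale.

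Mcm6 was the only member whose widths separated the groups. They were 680, 680 and 685 bp in WT and 660, 625 and 624 bp in KO (682 ± 2.89 against 636 ± 20.5, SD). All KO widths lay below all WT widths, as at 21.6% of gene starts. The difference was -0.10 ± 0.05 on the log2 scale (SE; limma adjusted p = 0.377). With each library centred on its median width it was -0.016 (adjusted p = 0.928). The upstream edge lay 230, 225 and 230 bp before the start in WT and 197, 221 and 204 bp before it in KO, and the interval held 2 summits in each WT library and 1, 1 and 2 in KO. The remaining widths overlapped: Mcm7 had 480, 479 and 444 bp in WT and 445, 410 and 439 bp in KO (-0.12 ± 0.07 on the log2 scale, adjusted p = 0.451; centred on the library median, -0.032 with an adjusted p of 0.881). Mcm2 measured 419 to 474 bp in WT and 447 to 499 bp in KO. Mcm3 measured 587 to 663 bp in WT and 589 to 715 bp in KO, and Mcm5 442 to 599 bp in WT and 461 to 602 bp in KO.

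The position of the summit, the base of the strongest signal within an interval, was read as a further measure chosen after the intervals had been seen. Positions are in bp from the gene start, positive into the gene. Of 12922 gene starts 0.426% were called by limma, and none of the 6 members was among them. At an unadjusted p under 0.05 there was 1, Mcm7, with an upstream shift in KO, as had 2.79% of gene starts. For 4 genes the summit hardly moved between libraries. It lay at 50 to 57 bp in Mcm2, at -86 to -80 bp in Mcm3, at 4 to 12 bp in Mcm5 and at -22 to -11 bp in Mcm6.

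Mcm7 was the only member whose summits separated the groups. Counted inwards from the outer end of the span, 138172111, they lay at 123, 103 and 108 bp in WT (111 ± 10.4, SD). In KO they lay at 66, 70 and 72 bp (69.3 ± 3.06). The outer listed Mcm7 start, 138171883, lies further in, so the summits of both groups were upstream of it. The shift was -42 ± 6.1 bp (SE; limma adjusted p = 0.226). A shift at least this large occurred at 22.0% of gene starts, groups apart at 15.6%, and both at 3.95%. The KO summits lay 1, 3 and 5 bp from the outer Mcm7 match of the E2F letters shown above, and the WT summits 56, 36 and 41 bp from it. Other searched letters lie as near: the CHR match was 8, 12 and 14 bp from the KO summits and 65, 45 and 50 bp from the WT summits, and a GC box, GGGCGG, was 7, 13 and 8 bp from the WT summits and 50, 46 and 44 bp from the KO summits. GGGCGG is held by 46.2% of all promoters. The other Mcm7 match of the E2F letters lay 125, 145 and 140 bp from the WT summits. From the KO summits that match lay 182, 178 and 176 bp away. The CCAAT matches at the outer Mcm7 start were also nearer to the WT summits than to the KO summits. Because Ap4m1 starts in the same interval, the shift cannot be given to either gene. In Mcm4 the summit lay at -113, -51 and -112 bp in WT and -2, -6 and -82 bp in KO. The groups overlapped there, with a shift of 62 ± 30.5 bp (SE; adjusted p = 0.471).

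**Figure D4:**
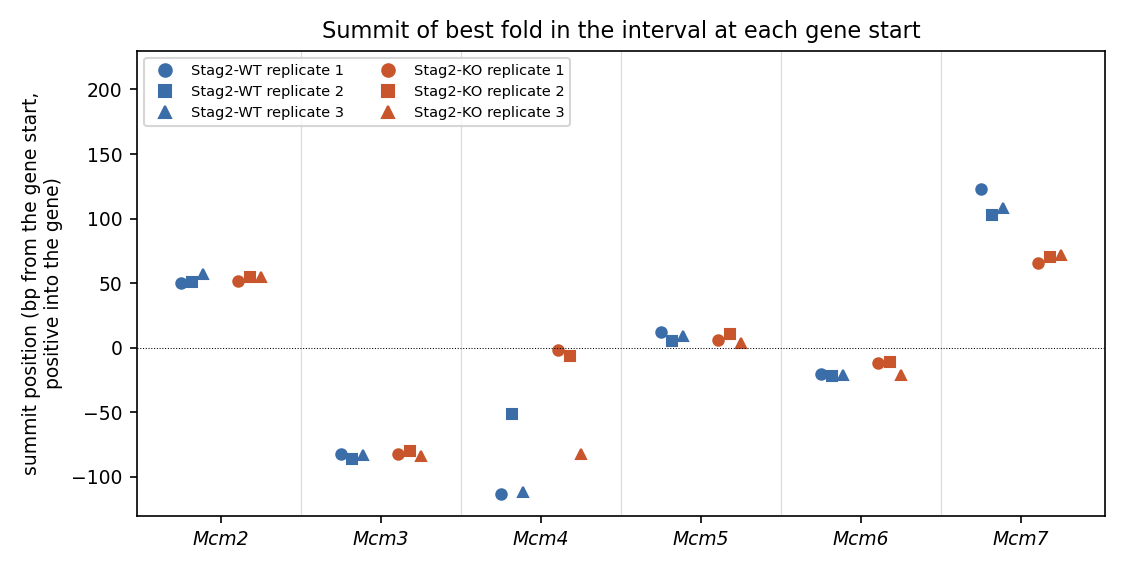
Position of the strongest summit at each Mcm gene start, in bp from the start and positive into the gene; points are the 3 WT and 3 KO libraries. Mcm7 summits lie at 103 to 123 bp in WT and 66 to 72 bp in KO from the outer end of its span, whereas Mcm4 summits scatter from -113 to -2 bp.

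With the starts counted, the 6 loci held 19 merged regions among the best 100000 intervals, of which 15 were present in all 6 libraries and could be tested. None was called by limma, where 0.0209% of 100565 regions were (21 in all). At an unadjusted p under 0.05 there was 1, the Mcm2 start already described, with a better rank in KO, as had 6.97% of all regions. At the Mcm2 locus the interval over the start of Tpra1, at chr6:88901584-88902865 and 2804 bp from the Mcm2 start, ranked 19735, 46655 and 23351 in WT and 51965, 58520 and 29794 in KO. The groups overlapped, and the gain of -0.69 ± 0.41 (SE; adjusted p = 0.428) had the opposite sign to that of the Mcm2 start. Its size moved with single libraries, from -0.44 without WT replicate 1 to -1.07 without WT replicate 2, and it was -1.72 when ranked by -log10 p (adjusted p = 0.238). On the other side, at the start of Podxl2, the region chr6:88874191-88875413 ranked 78909, 57182 and 76829 in WT and 53181, 43569 and 71311 in KO (gain 0.36 ± 0.26, SE; adjusted p = 0.512). That gain was 0.19 without KO replicate 2, 0.55 without KO replicate 3 and 0.58 when ranked by -log10 p. Within Mcm2 a weak interval near 5 kb into the gene was listed in all 6 libraries, at ranks of 96539 to 131500 in the whole lists.

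The Mcm5 locus had 2 further regions in every library. One lay 612 bp before the start at chr8:75108592-75108856, and the other, beyond the far end of the gene at chr8:75132516-75132853, ranked 22381, 23237 and 25548 in WT and 39647, 13633 and 39257 in KO. KO replicate 2 ranked the latter best of all 6 libraries and the other KO libraries ranked it worst. At the Mcm6 locus the only other region in all 6 libraries lay inside Dars at chr1:128368732-128368965. The Mcm7 locus held the starts of Cops6, at chr5:138160824-138161685, and of Zfp113, at chr5:138155306-138156060; the latter ranked 3246, 6113 and 3487 in WT and 4938, 9529 and 3579 in KO (gain -0.43 ± 0.58, SE; adjusted p = 0.730). Without KO replicate 2 the gain was -0.034, without WT replicate 1 -0.26, without WT replicate 2 -0.71 and without KO replicate 3 -0.74. The Zfp113 interval was stronger than either interval at Mcm7 itself in every library.

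The number of intervals per locus barely moved. Among the best 100000 intervals Mcm5 had 3 and Mcm7 had 4 in every library. Mcm2 had 5, 4 and 4 in WT and 4 in each KO library; Mcm6 had 2 in each WT library and 3, 2 and 2 in KO. Mcm3 and Mcm4 had 1 in most libraries and 2 in WT replicate 3 and KO replicate 2, respectively. No member was called by limma, where 1.33% of 17838 genes were, and 0 had an unadjusted p under 0.05, where 4.11% of genes had more intervals in KO at that level. In the whole lists KO replicate 1 held 39 intervals over the 6 loci, and 19 to 23 were held by the others. That library's list was also the longest, and per 10000 intervals the counts were 1.31, 1.26 and 1.39 in WT and 1.497, 1.34 and 1.07 in KO.

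A list of other genes of origin licensing and helicase activation was read in the same way. Of 25 listed genes 23 could be tested, and 0 were called against the 0.0932% of all gene starts; 16 had positive and 7 negative gains, and 1 of the 23, Mtbp, had an unadjusted p under 0.05 with a better rank in KO, beside 11.7% of all gene starts. Their median gain was 0.15, and the median over all gene starts was 0.24. Orc1 and Orc4, subunits of the origin recognition complex, had no interval at the start used among the best 100000 of any library. The smallest p among positive gains belonged to Mtbp, a partner of the origin-firing factor Treslin, which ranked 37434, 34137 and 43454 in WT and 17038, 24706 and 31677 in KO. All 3 KO ranks were better than the WT ranks, as in 5 of the 23 (Gins1, Gins3, Cdc7, Mtbp and Topbp1) and at 16.5% of all gene starts, and the gain was 0.69 ± 0.30 (SE; limma adjusted p = 0.362). Gins1, a GINS subunit, followed with 0.41 ± 0.23 (adjusted p = 0.439). Among negative gains the smallest p belonged to Mcm8, a relative of the MCM subunits that acts in recombination, with ranks of 520, 4773 and 662 in WT and 3011, 9487 and 1177 in KO. Those groups overlapped, with a gain of -1.45 ± 1.03 (adjusted p = 0.523). Gins4, another GINS subunit, had -0.70 ± 0.77 (adjusted p = 0.707).

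**Figure D5:**
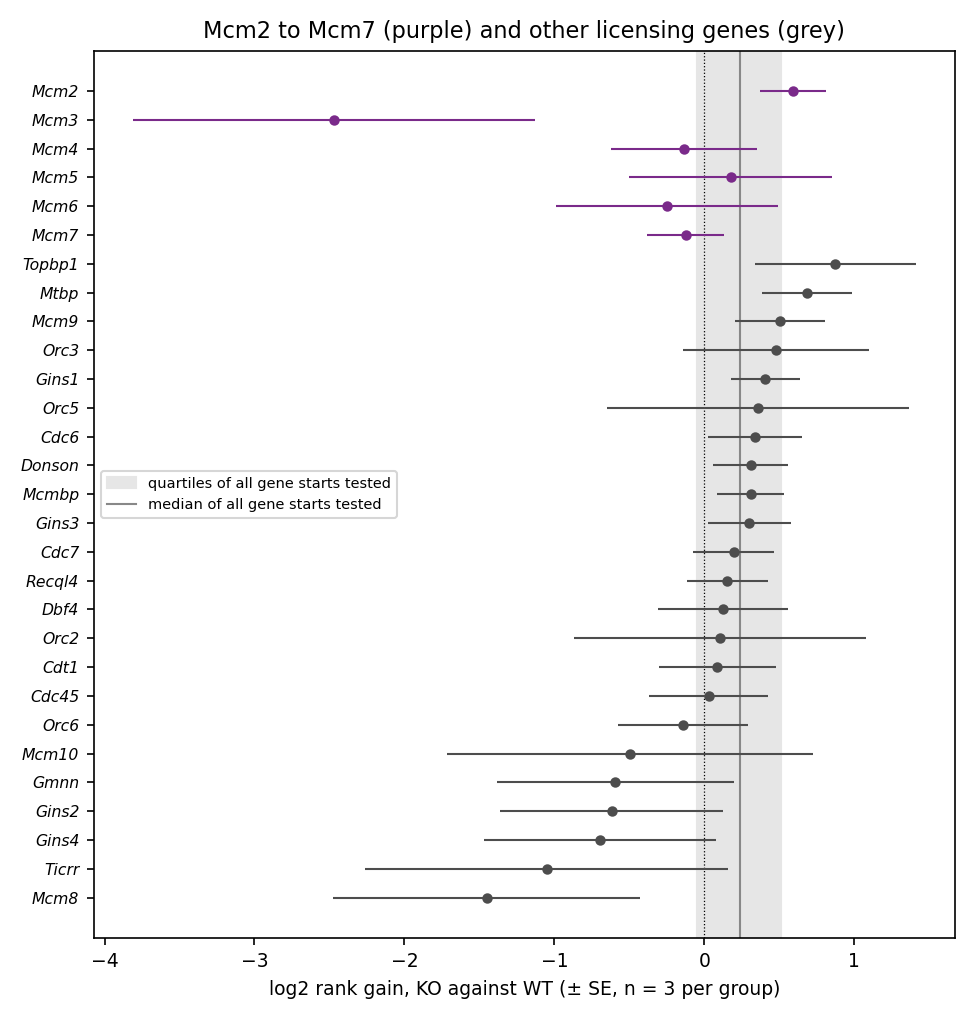
Log2 rank gain in KO against WT at the starts of Mcm2 to Mcm7 (purple) and of 23 other licensing and activation genes (grey), with the SE of the limma fit, n = 3 per group; the grey line and band are the median and the range between the quartiles of all gene starts tested. Mcm3 lies lowest at -2.47 with an SE of 1.34, and no gene shown was called.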

How the data were processed

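ATAC-seq peak lists of 3 Stag2-WT and 3 Stag2-KO libraries were used, 1 list per library. Peaks were called by the authors in each library separately; the names of the deposited files record removal of duplicate and mitochondrial reads, a blacklist filter, a p cutoff of 0.01 and a maximum list length. The list of KO replicate 1 starts at a -log10 p of 3.00, the others at 2.00. The build mm10 and DiffBind come from the submitters' processing notes; no aligner or peak caller is named in them or in the files. The deposited values are a fold (ratio) over background per summit, -log10 p and -log10 q, and a display score that was not tested.

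Peaks with the same start and end were joined to 1 distinct interval with its best fold. The best 100000 intervals per library by fold were ranked, and a library without an interval was given 100001. Gene starts with an interval in at least 3 libraries were compared on -log2 rank with limma 3.58.1 in R 4.3.3 (trend, two-sided, Benjamini-Hochberg over all rows tested; called below 0.05). Log2 widths, locus counts as log2(number + 1) and merged regions (overlap of 1 bp) were fitted likewise, and summit positions without trend. The fit of gene start ranks, without block or covariate, was tested on simulated data, and the other fits were not. Spans came from RefSeq GRCm38.p6 and strands from its promoter entries. No gene list was tested as a set.

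The Mcm genes were chosen by name, and the members and the licensing and marker lists were chosen with earlier results of these data known. The text names the 6 genes, genes sharing their intervals, the 2 licensing genes with the smallest p in each direction, and in each locus the start, the best other region and, over the loci, the 3 regions with the smallest p in each direction. Deviations from the group means were correlated between WT and KO libraries over 12870 gene starts. For same-numbered replicates 1, 2 and 3 the r was 0.127, 0.725 and 0.458. WT replicate 1 correlated more with KO replicate 3 (0.542). Deviations within a group are tied to one another, so these values do not settle a pairing. A fit with the replicate as a block was run as an alternative. The lists give no read totals, so no counting interval is given.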

Additional observations from a re-analysis of the deposited data

How the results depend on the processing

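None of the 6 Mcm genes was called under any alternative run for start rank, start width, locus interval number or summit position; the lowest adjusted p was 0.0858. Of 106 alternative values for start rank 17 changed sign, of 72 for width 6, of 66 for interval number 1, and of 76 for the named regions 0.

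With the share at gene starts as covariate the gain was 2.39 in Mcm3, 1.10 in Mcm4 and 0.74 in Mcm7. It was -0.024 in Mcm5 when ranking by -log10 p and -0.068 when centred on the library median. Centring also moved the gains of Mcm4, Mcm6 and Mcm7 to -0.38, -0.49 and -0.37, and ranking by -log10 p moved that of Mcm4 to -0.41. Rank divided by list length over whole lists gave 0.035 in Mcm4 and 0.043 in Mcm7. A 1000 bp window, or every listed start (an alternative chosen after seeing the data), gave 0.35 in Mcm7. The linear rank, in units of 1000 ranks, gave 0.93 in Mcm4. Centred widths gave 0.083 in Mcm4, and the best 50000 intervals gave 0.19 for the interval number of Mcm2. Leaving out 1 library at a time, the gain ran from -0.70 to 0.32 in Mcm4, from -0.19 to 0.56 in Mcm5, from -0.82 to 0.20 in Mcm6 and from -0.34 to 0.088 in Mcm7. The width difference so ran from -0.059 to 0.090 in Mcm3, from -0.018 to 0.029 in Mcm4 and from -0.10 to 0.12 in Mcm5. The cause was not tested. With the best 50000 intervals Mcm2 and Mcm7 could not be fitted, because too few libraries had an interval.

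The replicate block changed no call of an Mcm gene or licensing gene (adjusted p of 0.121 for Mcm2 and 0.145 for Mcm3). It moved called regions from 21 to 32 and called widths from 159 to 0. Called gene starts were 12, and 0 with the covariate, 5 with the best 50000, 128 with whole lists, 4 with the 1000 bp window, 6 with an interval in at least 1 library and 2 with one in all 6. Leaving out 1 library gave 0 (KO replicate 1) to 924 (KO replicate 3). Called regions were 52 by -log10 p, 4 with the best 50000, 0 with an interval in all 6 libraries and 244 where an interval covers at least 50% of the region, the last chosen after seeing the data. Leaving out 1 library gave 2 to 2413 regions (KO replicate 3 highest), 39 to 748 widths, 355 to 977 interval numbers (238 with all libraries) and 79 to 519 summits (55 with all libraries). Centred widths gave 46 calls.

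Ranks near the top of a list span a wide log2 range over a narrow range of fold. The part of this in the spread of the Mcm3 value was not tested. The depth of the libraries is unknown.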

Other observations

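The Mcm7 gene also carries the microRNA genes Mir25, Mir93 and Mir106b in its body. No library had an interval over Mir93 or Mir106b. At Mir25 an interval was listed in KO replicate 1, at rank 187955, and in KO replicate 2, at rank 146931, both beyond the best 100000, and none in the other 4 libraries. At the Mcm6 locus an interval inside the gene at chr1:128333400-128333598 ranked 67135 in KO replicate 1 and was not among the best 100000 of any other library.

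Over the 6 libraries the gene start most like each member by mean absolute difference in log2 rank was Man1a2 for Mcm2 (0.064), Ivd for Mcm3 (0.55), Ptp4a1 for Mcm4 (0.073), Clpp for Mcm5 (0.071), Lman1 for Mcm6 (0.24) and Zfp260 for Mcm7 (0.063). Ivd ranked 87, 1786 and 287 in WT and 1011, 2874 and 279 in KO. None of these genes belongs to the licensing list, and the likeness is a description of the ranks.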
